A study of Mus musculus with 4 samples.

Results

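Fibroblasts of the mouse thoracic aorta that carried transcripts of Mmp3 or Saa3 were described in single-cell data. A cell was taken as a fibroblast when it held at least 10 unique molecular identifiers (UMIs, each a counted transcript) of Dcn and Lum together, at most 1 of Myh11, and fewer than 10 of Lyz2, C1qa and C1qb together. The described cells were selected on at least 3 UMIs of Saa3 and Mmp3 together and at most 2 of Prg4 and Crabp2 together. They numbered 627 of 38316 cells, with 245 in KO AngII, 208 in WT AngII, 57 in KO saline and 117 for WT saline. Fibroblasts of the same library with no Saa3 or Mmp3 UMI, under the same Prg4 and Crabp2 limit, served as comparison cells and numbered 988, 1027, 380 and 767 in that order. Because the selection used measured values, the Saa3 and Mmp3 levels of these cells are a description.

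The study asked what STING, the adaptor that turns cytosolic DNA sensing into interferon production, does in the aorta. The KO AngII library came from mice with a whole-body Sting knockout that were infused with angiotensin II (AngII, a hormone that constricts arteries) for 7 days and fed a high fat diet for 5 weeks. WT AngII came from wild-type mice treated the same way. KO saline and WT saline came from knockout and wild-type mice given saline on a normal diet, so infusion and diet cannot be told apart, and the labels give no age, sex or strain. Each library pooled 3 mice after removal of the fat around the vessel and sorting of viable cells, and there was 1 library per group. No difference below therefore has a replicate check, no test was made, and intervals cover counting error of UMIs or cells only.

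The libraries held 8495 to 12053 cells and 60064038 to 94698727 UMIs. Selected cells had median depths of 11171 UMIs in KO AngII, 7982.5 in WT AngII, 4009 in KO saline and 3693 for WT saline, so the saline cells were shallower. Comparison cells had medians of 10661.5, 8662, 3958 and 3594 UMIs. Between 92 and 148 cell barcodes recurred in each pair of libraries, and 1 of them belonged to a selected cell in both. Tmem173, which encodes STING, had 6.10 UMIs per 1000000 UMIs of the cell set (CPM) in the library labelled KO AngII and 7.03 in WT AngII, and 1.33 in the library labelled KO saline against 1.75 in WT saline. Counts at the 3′ end do not check a deletion that lies elsewhere in the gene, and no source used here states which exons were removed. KO below means the label.

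Mmp3 encodes stromelysin-1, a secreted protease that degrades proteoglycans and fibronectin and activates other matrix metalloproteinases. Fibroblasts make it when interleukin-1 or tumour necrosis factor act through the AP-1 transcription factor. Saa3 encodes serum amyloid A3, an acute phase protein that in mice is made largely outside the liver, and C/EBP factors are known to drive its promoter. Adventitial fibroblasts, the main stromal cells of the outer vessel wall, produce matrix and chemokines and are remodelled by AngII.

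The promoter windows of both selection genes are shown because the selection rests on them. They run from 250 bases before to 50 bases after the RefSeq gene start (GRCm38.p6) and were searched on both strands for AP-1 (TGANTCA), C/EBP (TTNNGCAA) and NF-kB (GGG, any 5 bases, CC). Capitals mark AP-1 or C/EBP matches.
Mmp3, chr9:7445572-7445871, plus strand: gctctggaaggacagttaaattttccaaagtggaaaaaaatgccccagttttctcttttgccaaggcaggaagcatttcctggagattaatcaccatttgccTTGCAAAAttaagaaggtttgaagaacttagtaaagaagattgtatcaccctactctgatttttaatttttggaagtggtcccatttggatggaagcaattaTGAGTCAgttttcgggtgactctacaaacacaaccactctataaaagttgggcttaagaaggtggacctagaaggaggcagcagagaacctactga
Saa3, chr7:46715627-46715926, minus strand: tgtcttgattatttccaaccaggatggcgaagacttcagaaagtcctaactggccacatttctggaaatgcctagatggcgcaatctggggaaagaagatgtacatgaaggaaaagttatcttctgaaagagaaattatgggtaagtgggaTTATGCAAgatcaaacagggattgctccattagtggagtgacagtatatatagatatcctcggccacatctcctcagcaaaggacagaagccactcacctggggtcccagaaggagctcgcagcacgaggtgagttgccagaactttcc
The Mmp3 window held an AP-1 match 46 bases and a C/EBP match 148 bases before the start. The Saa3 window held a C/EBP match 99 bases before the start and no AP-1 match, and neither window held an NF-kB match. Of 32817 windows of this length in the RefSeq table, 7.81% held AP-1, 10.8% C/EBP and 50.8% NF-kB matches. A match is a description of the letters and not a bound site. In GENCODE vM21 (GRCm38), Mmp3 lies on chromosome 9 at 7445822 to 7455975 and Saa3 on chromosome 7 at 46711998 to 46715700.

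Although the selection counted both genes, almost every selected cell qualified through Mmp3. Mmp3 was detected in 238 of 245 selected cells of KO AngII (97.1%), 206 of 208 of WT AngII (99.0%), 57 of 57 of KO saline and 117 of 117 of WT saline. Saa3 was detected in 23 cells of KO AngII (9.39%) and 11 of WT AngII (5.29%), and both genes together in 16 and 9 cells. No saline cell of any kind held a Saa3 UMI, which in the selected cells allows a share of cells with a UMI, not of cells that express the gene, of up to 5.26% in KO saline and 2.56% in WT saline. These cells are therefore called Mmp3-selected fibroblasts here, since the data go against a population marked jointly by Saa3 and Mmp3.

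Mmp3 was spread over many cells and Saa3 was not. The median selected cell held 6 Mmp3 UMIs in KO AngII, 7 in WT AngII, 6 in KO saline and 8 for WT saline, with highest cells of 180, 155, 37 and 78. Of the 525 Saa3 UMIs of selected cells in KO AngII, 216 (41.1%) lay in 1 cell, and of the 1267 in WT AngII, 738 (58.2%) lay in 1 cell. The 3 highest cells together held 64.8% and 87.8%. Just inside the threshold, 45, 38, 10 and 15 cells in the order KO AngII, WT AngII, KO saline and WT saline had exactly 3 UMIs, and just outside it 77, 51, 22 and 35 cells had exactly 2.

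**Figure D1:**
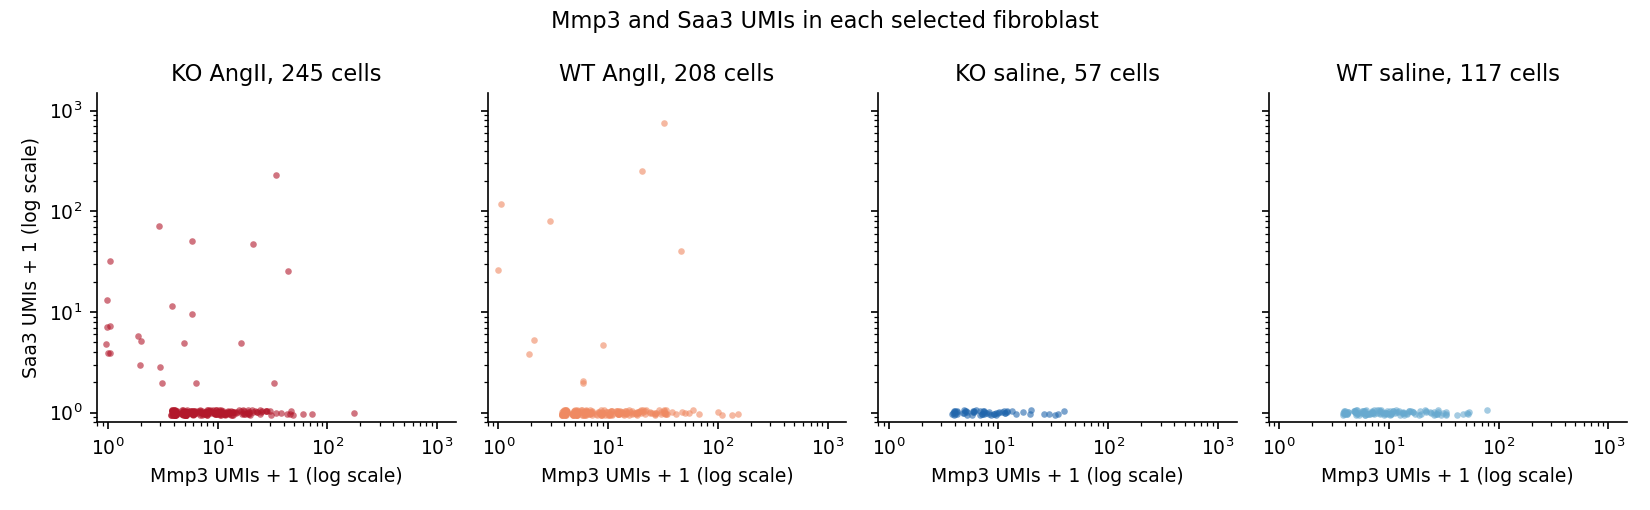
Mmp3 (x axis) and Saa3 (y axis) UMIs plus 1 on log scales for every selected cell of the 4 libraries, 1 point per cell with a small random shift. Most points lie on the floor of 0 Saa3 UMIs, and the highest point of WT AngII is the cell with 738 Saa3 UMIs.

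Selected cells made up a similar share of fibroblasts in all 4 libraries, 13.2% in KO AngII (95% Clopper-Pearson interval 11.7 to 14.9), 12.4% in WT AngII (10.9 to 14.1), 11.3% in KO saline (8.66 to 14.4) and 11.6% in WT saline (9.66 to 13.7). The 4 intervals overlapped. Thinned to 5000 UMIs, with shallower cells left out, the shares were 9.36%, 9.99%, 9.95% and 11.2% in the same order. This left out 658, 425, 4477 and 3293 cells, so the saline shares rest on the 191 and 241 fibroblasts deep enough. As a share of all cells they were 2.88%, 2.45%, 0.473% and 1.26%, beside 1851, 1672, 505 and 1012 fibroblasts. A sample of captured cells does not tell whether a cell type was rarer in the tissue or released less well.

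The Mmp3 level was lower in fibroblasts of AngII libraries. Over all fibroblasts it was 142 CPM in KO AngII against 242 in KO saline, and 205 in WT AngII against 424 in WT saline. Within selected cells, where a fixed threshold in UMIs is a higher CPM in a shallower cell, it was 827 and 1476 CPM in the AngII libraries (KO, WT) against 1801 and 3044 in the saline libraries. Smooth muscle cells were taken as cells with at least 10 Myh11 UMIs and fewer than 10 of Dcn and Lum together. Of them, 1.75%, 3.18%, 1.78% and 2.09% held a Mmp3 UMI at medians of 8788.5, 10746, 7867.5 and 7462 UMIs, in the order KO AngII, WT AngII, KO saline and WT saline. Of fibroblasts, 28.2%, 25.5%, 23% and 22.1% did at medians of 11760, 9064, 3878 and 3601.5 UMIs, in the same order.

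Much of the Saa3 lay outside the selected cells. Fibroblasts with more than 2 Prg4 and Crabp2 UMIs, which the selection leaves out, held 48.4% of all Saa3 UMIs of KO AngII and 35.7% of those of WT AngII. The selected cells held 33.7% and 37.1%. In the Prg4- and Crabp2-high fibroblasts of KO AngII, 6 cells with at least 10 Saa3 UMIs held 97.1% of the 754 Saa3 UMIs of that set. In WT AngII, 7 such cells held 97.9% of 1218. Saa3 was detected in 3.10% of the Prg4- and Crabp2-high fibroblasts in KO AngII and 7.22% in WT AngII, against 2.24% and 2.20% of the others.

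The few Saa3-positive selected cells were set beside the other selected cells of their library, with genes chosen after their values were seen, as a description of 23 and 11 cells. Lcn2, an iron-binding acute phase protein, reached 552 CPM in the 11 cells of WT AngII against 6.29 CPM in the other 197, but in KO AngII 28.7 against 3.75 CPM, and 55 of the 81 Lcn2 UMIs of WT AngII lay in 1 cell. The neutrophil chemokine Cxcl1 was at 4738 against 539 CPM in WT AngII and 3092 against 1362 CPM in KO AngII. The protease inhibitor Timp1 was at 4438 against 939 CPM in WT AngII and 5498 against 2575 CPM in KO AngII. Il6 was at 914 against 129 CPM in WT AngII and 378 against 293 CPM in KO AngII. In WT AngII, Cxcl1 was detected in 6 and Il6 in 5 of the 11 cells. Serpina3n and C3, which also belong to the acute phase, differed less, Serpina3n at 421 against 384 CPM in KO AngII and 639 against 418 CPM in WT AngII, and the intervals of C3 held 0 in both. Mmp3 was at 487 against 872 CPM in KO AngII and 954 against 1514 CPM in WT AngII, a direction that the selection favours, because cells without Saa3 needed at least 3 Mmp3 UMIs and Saa3-positive cells did not. The mesothelial genes Msln and Upk3b had 0 UMIs in selected cells of both AngII libraries. Cd74 was at 575 against 13.1 CPM in WT AngII, with 73 UMIs in 3 of the 11 cells, and at 5.73 against 4.50 CPM in KO AngII. Without these cells, the selected cells of WT AngII were at 539 rather than 822 CPM for Cxcl1. There Ccl2 was at 332 rather than 540 CPM and Il6 at 129 rather than 182 CPM. In KO AngII the values were 1362 rather than 1563, 1190 rather than 1291, and 293 rather than 303 CPM. The count of genes apart from comparison cells without Saa3-positive cells is given with the processing choices below.

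The selected cells were checked against markers of other cell types. The fibroblast identity genes that the selection did not use (8 of 8 above the minimum) had medians of log2 0.07, 0.05, 0.33 and 0.40 in KO AngII, WT AngII, KO saline and WT saline, selected over comparison cells. Summed endothelial markers were 7.63, 22.4, 42.1 and 103 CPM in selected cells, against 22.7, 27.8, 167 and 196 CPM in comparison cells, and Cdh5 was at 0 in the selected cells of all 4. Summed phagocyte markers outside the selection were 47.8, 26.7, 14.0 and 6.20 CPM against 38.6, 22.7, 11.8 and 14.8 CPM. Schwann cell markers summed to 44.8, 59.2, 56.1 and 12.4 CPM against 55.1, 75.1, 48.8 and 27.3 CPM, and mesothelial markers to 4.65, 8.53, 0 and 12.4 CPM against 3.90, 10.2, 46.1 and 12.2 CPM. Neutrophil, lymphocyte and adipocyte markers summed to at most 0.664 CPM in selected cells of any library. Smooth muscle markers other than Myh11 summed to 2539 CPM in KO AngII, 1102 in WT AngII, 3501 in KO saline and 1731 for WT saline selected cells, against 2495, 1342, 5504 and 1725 CPM in comparison cells, and their part in the results was not tested.

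Selected cells differed from comparison cells in few genes. Of 8958 genes with at least 50 UMIs over both cell sets and detection in at least 5% of cells of the higher set in both AngII libraries, 17 reached a 2-fold higher level in the selected cells of both AngII libraries with counting intervals clear of 0 (0.19%), and 36 a 2-fold lower level (0.402%). At 1.5-fold, 67 genes were higher (0.748%) and 85 lower (0.949%). The median log2 ratio of these genes was 0.02 in KO AngII and 0.00 in WT AngII. The 12 higher and 12 lower genes whose intervals ended farthest from 0 are described first, by role.

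Among secreted and matrix-bound proteins, Fbln7, a fibulin of the extracellular matrix on chromosome 2 (128862981 to 128897034), stood at 73.0 CPM in selected and 24.9 CPM in comparison cells of KO AngII. It stood at 138 and 32.7 CPM in WT AngII, 379 and 111 CPM in KO saline, and 213 and 108 CPM in WT saline. The log2 ratios were 1.55 (95% interval 1.29 to 1.81), 2.08 (1.84 to 2.32), 1.78 (1.43 to 2.12) and 0.97 (0.64 to 1.30), so the selected cells were higher in all 4 libraries.

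Sfrp4, a secreted antagonist of Wnt ligands, was at 1428 and 524 CPM in KO AngII, 1927 and 777 CPM in WT AngII and 1973 and 785 CPM in KO saline, selected cells first. In WT saline it was at 482 and 509 CPM, so this library did not share the difference. Figf, the lymphatic growth factor now named Vegfd, had log2 ratios of 1.02, 1.26, 1.01 and 0.42 in KO AngII, WT AngII, KO saline and WT saline. Vwc2, a secreted antagonist of bone morphogenetic proteins, had ratios of 1.84, 1.53, 0.46 and 1.76, and in KO saline its interval held 0.

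F3, tissue factor, the cell-surface protein that starts blood clotting (chromosome 3, 121723537 to 121735048), was at 197 and 86.4 CPM in KO AngII, 182 and 68.4 CPM in WT AngII, 648 and 333 CPM in KO saline and 536 and 248 CPM for WT saline, selected cells first. Its log2 ratios of 1.19 (1.04 to 1.34), 1.42 (1.22 to 1.60), 0.96 (0.72 to 1.20) and 1.11 (0.90 to 1.32) all had intervals above 0. Tnfsf13b, the B cell survival cytokine BAFF, was at 29.9 and 12 CPM in KO AngII, 56.0 and 11.9 CPM in WT AngII, 94.6 and 24.7 CPM in KO saline and 64.1 and 29.2 CPM for WT saline. The selected cells were higher in every library, with ratios between 1.13 and 2.23.

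Metabolic genes were represented by Hsd11b1, Apoe and Fmo2. Hsd11b1, which regenerates active glucocorticoid from its inert form, was at 21.9 and 8.32 CPM in KO AngII, 35.2 and 11.2 CPM in WT AngII, 238 and 59.0 CPM in KO saline and 250.2 and 144 CPM for WT saline, selected cells first. Apoe, the lipid carrier apolipoprotein E, was at 411 and 201 CPM, 1134 and 484 CPM, 3389 and 2334 CPM, and 3025 and 1746 CPM in the same library order. Its ratios of 1.03 and 1.23 in KO and WT AngII passed 2-fold, and those of 0.54 and 0.79 in KO and WT saline did not. Fmo2, a flavin monooxygenase of foreign compounds, had ratios of 1.12, 1.19, 0.89 and 0.69. The membrane proteins Gria4 (a glutamate receptor subunit), Lsamp (a neural adhesion molecule) and Shisa3 had ratios of at least 0.81 in every library, although the intervals of Gria4 in KO saline and Shisa3 in WT saline held 0.

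The 2 saline libraries took no part in choosing these 12 genes. All 12 were higher in selected cells of KO saline, and 10 had an interval above 0. In WT saline 11 were higher and 10 had an interval above 0. Over all genes measured there, 46.4% were higher in KO saline and 5.61% had an interval above 0, and in WT saline the shares were 51.9% and 7.60%. Saa3 is at 0 in both saline libraries, so the selection there rests on Mmp3 alone. Of the 12 genes, 10 had a RefSeq promoter window, and Sfrp4 and Figf had none in the table. Of the 10 genes, 2 held an AP-1, 3 a C/EBP and 5 an NF-kB match in any of their windows. Apoe had 3 windows and Tnfsf13b, Fmo2 and Lsamp 2 each. The shares of 7.81%, 10.8% and 50.8% given above are per window, so they are not the share expected per gene.

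**Figure D2:**
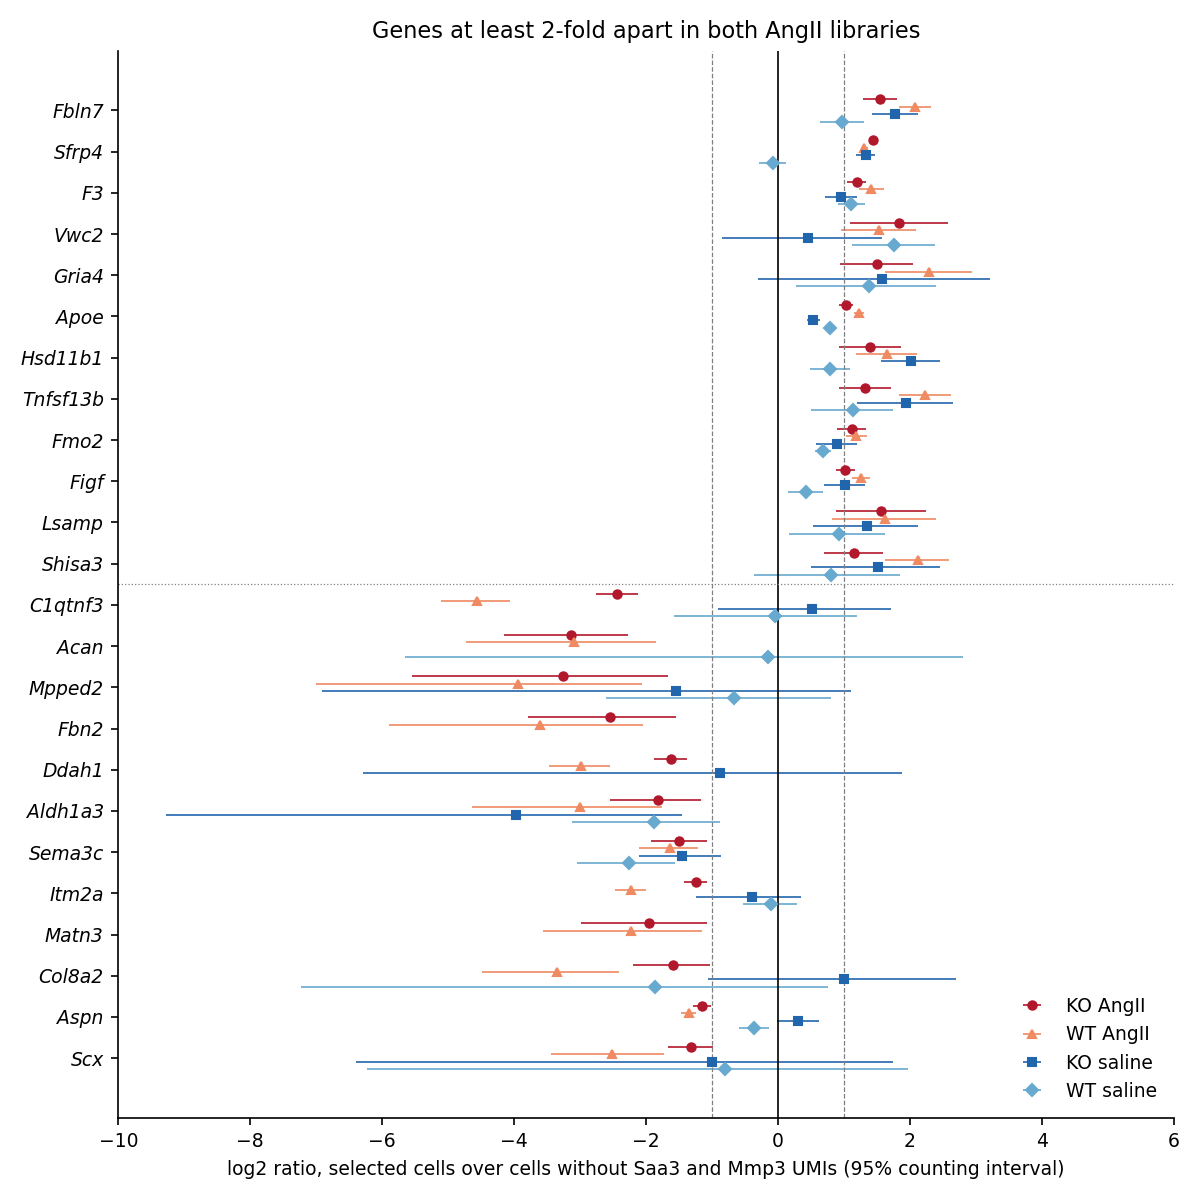
Log2 ratio of CPM in selected cells over comparison cells (x axis) with its 95% counting interval for the 12 higher and 12 lower genes (rows), with 1 symbol per library, dashed lines at 2-fold; genes at 0 in a set have no symbol in that library. The higher genes lie right of 0 in nearly every library, whereas the lower genes other than Aldh1a3 and Sema3c have saline intervals that hold 0, or no symbol, except Aspn in WT saline.

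The 12 lower genes included several of the extracellular matrix. C1qtnf3, a secreted C1q-like protein found in cartilage (chromosome 15, 10952332 to 10980150), was at 29.5 and 159.7 CPM in KO AngII and 17.1 and 402 CPM in WT AngII, selected cells first. Its log2 ratios were -2.44 (-2.76 to -2.13) and -4.56 (-5.11 to -4.06). In the saline libraries it was at 24.5 and 17.2 CPM (KO) and 12.4 and 12.8 CPM (WT), so the comparison cells of the AngII libraries were the high sets, and 1 cell held 12 of the 32 UMIs of selected cells in WT AngII. Acan, the proteoglycan aggrecan, was at 3.65 and 32.1 CPM in KO AngII and 2.67 and 22.6 CPM in WT AngII. Fbn2, Matn3, Col8a2 and Scx, which encode fibrillin-2, matrilin-3, a collagen VIII chain and the tendon factor scleraxis, had ratios between -1.32 and -3.61 in the AngII libraries and at most 23 UMIs in any saline cell set. Mpped2, a metallophosphodiesterase, had 3 and 2 UMIs in selected cells of KO and WT AngII against 112 and 165 in comparison cells.

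Aspn, the proteoglycan asporin, was at 166 and 369 CPM in KO AngII and 397 and 1015 CPM in WT AngII, and at 343 and 277 CPM in KO saline and 385 and 494 CPM for WT saline. Ddah1, which degrades an inhibitor of nitric oxide synthase, was at 47.4 and 147 CPM in KO AngII and 21.9 and 173 CPM in WT AngII, with at most 12 UMIs in any saline cell set. Itm2a, a membrane protein, was lower by ratios of -1.25 and -2.23 in KO and WT AngII, and its ratios of -0.40 and -0.11 in KO and WT saline had intervals that held 0.

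Of the 12 lower genes, 2 were past 2-fold with an interval below 0 in each saline library, and in both libraries these were Aldh1a3 and Sema3c. Over all genes measured, 139 of 5066 in KO saline and 181 of 6648 in WT saline were 2-fold lower. Besides these 2 genes, only Itm2a and Aspn reached the UMI and detection minimums there, so the other lower genes cannot be judged in saline. By direction alone, 9 of the 12 were lower in KO saline and 11 in WT saline, against 53.6% and 48.1% of all genes. Aldh1a3, which makes retinoic acid, was at 3.50 and 54.7 CPM in KO saline and 16.5 and 61.1 CPM in WT saline, and at 6.64 and 23.3 CPM in KO AngII and 2.67 and 21.3 CPM in WT AngII, resting on 1, 8, 20 and 5 UMIs in the selected cells of these libraries. Sema3c, a secreted semaphorin, was at 84.1 and 229.6 CPM in KO saline and 35.2 and 168 CPM in WT saline, and at 17.3 and 48.5 CPM in KO AngII and 24.5 and 76.6 CPM in WT AngII. The selected cells were the lower set of both genes in all 4 libraries.

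Levels were also read across 4 classes of Saa3 and Mmp3 UMIs per cell (0, 1 to 2, 3 to 9, and 10 or more), of which the middle class of 1 to 2 UMIs belongs to neither cell set. In KO AngII and in WT AngII, cells with 1 to 2 UMIs were above cells with 0 for 12 of 12 higher genes and below them for 12 of 12 lower genes. These genes were chosen in the AngII libraries by their ratio to the same 0 class, which favours this direction. The counts are therefore a description, with no share over all genes beside them. Fbln7 stood at 24.9, 39.9, 60.3 and 95.3 CPM over the 4 classes in KO AngII and at 32.7, 73.6, 122 and 158 CPM in WT AngII. C1qtnf3 stood at 160, 66.4, 38.5 and 13.7 CPM in KO AngII and at 402, 126, 10.4 and 25.6 CPM in WT AngII. In the saline libraries, 11 of 12 higher genes were above the 0 class at 1 to 2 UMIs in each, whereas for the lower genes 9 of 12 in KO saline and 6 of 12 in WT saline lay below it. Median depth of the classes ran from 9813 to 12120 UMIs in KO AngII and from 7780 to 8662 in WT AngII.

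**Figure D3:**
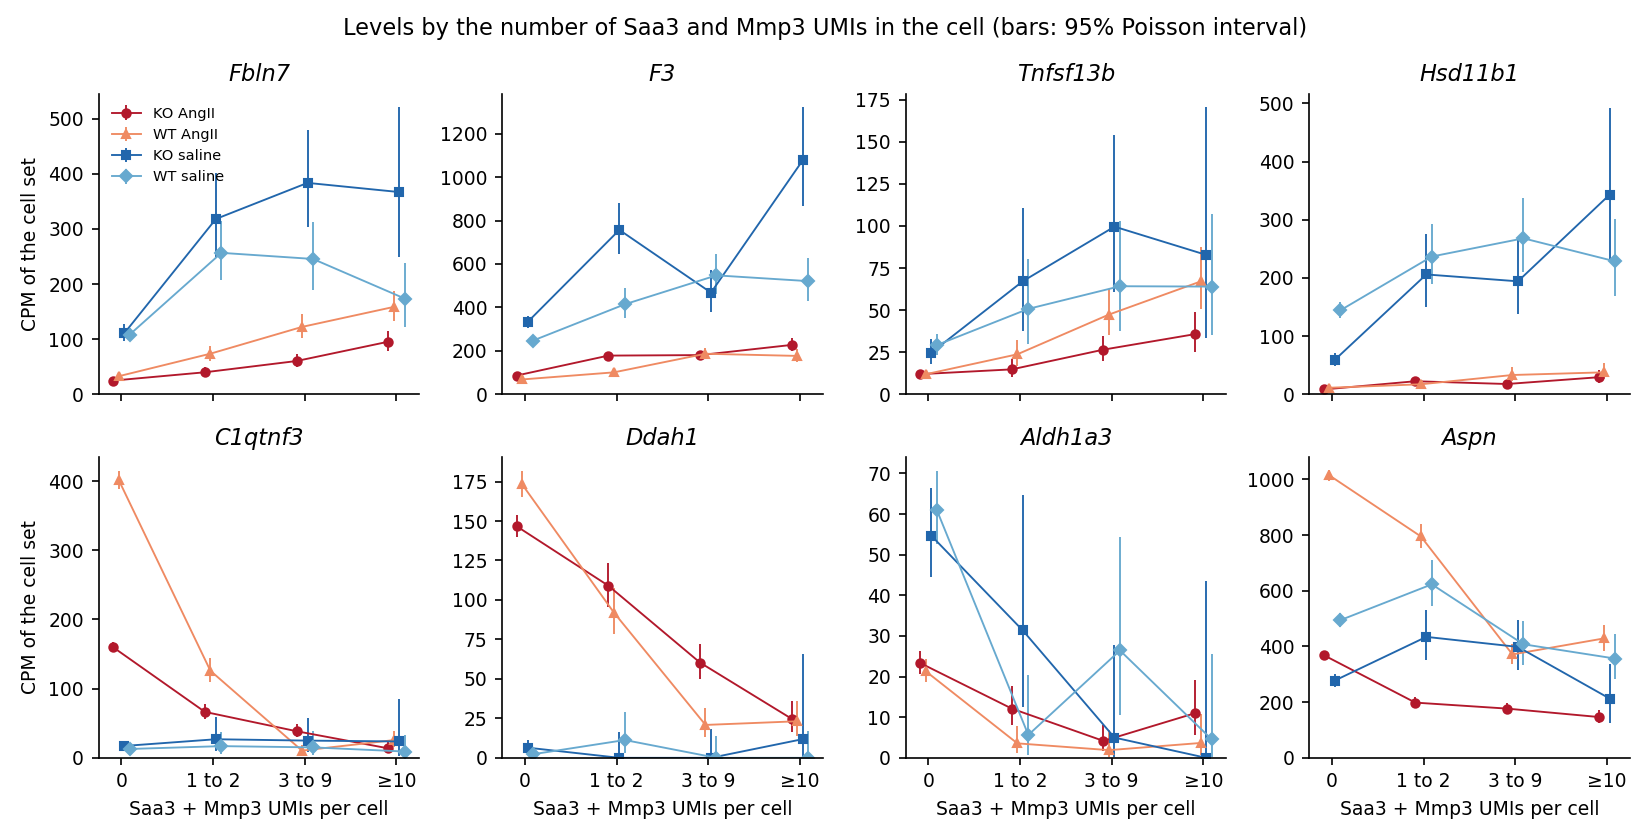
CPM (y axis) by the number of Saa3 and Mmp3 UMIs in the cell (x axis) for 4 higher genes in the upper and 4 lower genes in the lower panels, with 1 line per library and bars for the 95% Poisson interval. In the AngII libraries Fbln7 goes up over the classes to 95.3 and 158 CPM, and C1qtnf3, which begins at 160 and 402 CPM, ends at 13.7 CPM in KO AngII and 25.6 CPM in WT AngII after a low of 10.4 CPM there.

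The gene lists were described by how many of their eligible members were 1.5-fold apart in both AngII libraries, to be read against 0.748% of all genes higher and 0.949% lower. Genes of inflammation were only in part higher in the selected cells. Of 6 eligible acute phase genes 3 were higher, with list medians of log2 0.57 in KO AngII, 1.46 in WT AngII, -0.26 in KO saline and 0.49 for WT saline. The 3 were Cp, the copper carrier ceruloplasmin, Steap4, a metalloreductase, and Hp, haptoglobin. Cp was at 65.0 and 34.2 CPM in KO AngII, 101 and 34.0 CPM in WT AngII, 252 and 97.6 CPM in KO saline and 327 and 156 CPM for WT saline, and thus higher in selected cells of every library. Hp was higher in the AngII libraries, at 63.4 and 37.6 CPM in KO and 20.3 and 6.75 CPM in WT. In saline, selected cells held 0 and 4.14 CPM against 3.22 and 9.52 CPM (KO, WT). A count of 3 UMIs is 10.5 and 6.20 CPM in these selected cells. Their Hp levels thus rest on fewer than 3 UMIs and cannot decide whether a difference exists in saline.

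Complement genes had 3 higher and 1 lower of 8, with medians of 0.38, 0.85, -0.09 and 0.21 in KO AngII, WT AngII, KO saline and WT saline. The early components C2 and C4b and the alternative pathway factor Cfb were higher in selected cells of every library, C4b at 69.3 and 45.4 CPM, 234 and 101 CPM, 133 and 46.1 CPM, and 238 and 91.6 CPM in that order. Cd55, which protects cells from complement, was lower in every library, with ratios of -1.44, -1.14, -0.71 and -3.53. Cxcl12, the chemokine that retains CXCR4-positive cells, and Ccl8 were the 2 of 11 eligible chemokines that passed, Cxcl12 with ratios of 0.61, 1.67, 0.61 and 0.74. Il6 was the 1 of 6 cytokines that passed, at 303 and 199.5 CPM in KO AngII and 182 and 91.9 CPM in WT AngII. Its pass depended on the Saa3-positive cells, of which the 11 of WT AngII held 116 of its 341 UMIs. Without them the selected cells were at 293 CPM in KO AngII and 129 CPM in WT AngII, short of 1.5-fold in both.

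Pathways known to induce Mmp3 were read the same way, and 0 genes is also what the share over all genes would give for lists of this size. None of 15 NF-kB feedback and target genes passed in either direction, with medians of 0.13, 0.37, -0.11 and 0.48. Nfkbia, the inhibitor that NF-kB induces, was at 1387 and 1476 CPM in KO AngII and 910.4 and 856 CPM in WT AngII. None of 10 C/EBP and STAT3 genes, 14 immediate early genes (which include the subunits of AP-1) or 10 other matrix metalloproteinase and ADAMTS protease genes passed. The remodelling protease Mmp2 had ratios of -0.36, -0.21, 0.01 and 0.27. Mmp13 was too rare to be eligible, at 7.96 and 1.36 CPM in KO AngII and 3.20 and 0.0992 CPM in WT AngII.

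Part of the collagen and fibrosis list was lower in the selected cells of the AngII libraries. Of 16 genes 4 passed, all lower, with medians of -0.26 in KO AngII, -0.94 in WT AngII, -0.25 in KO saline and 0.00 for WT saline. These were Postn, Cthrc1, Fn1 and Col11a1. Postn, the matricellular protein periostin, was at 472 and 986 CPM in KO AngII and 438 and 1570.5 CPM in WT AngII. Cthrc1, a marker of activated fibroblasts, had at least 3 UMIs in 54.7% of selected and 69.7% of comparison cells of KO AngII (intervals 48.2 to 61.0 and 66.8 to 72.6), and in 50.0% and 69.2% of those of WT AngII (43.0 to 57.0 and 66.3 to 72.0). Activated and Mmp3-selected fibroblasts thus overlapped in part.

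Genes of the Pi16-positive adventitial fibroblasts, often described as progenitor-like, had list medians below 0 in all 4 libraries. Of 9 eligible genes 1 passed in the AngII libraries, Sema3c, which was lower. The list median was -0.22 in KO AngII and -0.15 in WT AngII, but -0.69 in KO saline and -1.57 for WT saline. Pi16 itself was at 674 and 934 CPM in KO AngII, 1142 and 1656 CPM in WT AngII, 2324 and 6095 CPM in KO saline and 1851 and 6036 CPM for WT saline, and 1 cell held 42.4% of its UMIs in the selected cells of KO saline, where 1366 CPM were left without it. The share of cells with at least 3 Pi16 UMIs was not lower in selected cells of the AngII libraries. It was 68.6% of selected and 66.9% of comparison cells in KO AngII, and 81.25% and 75.8% in WT AngII, with overlapping intervals. In KO saline it was 47.4% and 63.2%, and in WT saline 53.8% and 69.0%. Of the interferon-stimulated genes 7 were eligible, none was higher and Ifi27l2a was lower, at 88.9 and 149 CPM in KO AngII and 614 and 1047 CPM in WT AngII.

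The other lists differed in single genes. Adm, the vasodilator adrenomedullin, was the 1 of 16 glycolysis and hypoxia genes that was higher, with ratios of 1.13 in KO AngII and 0.87 in WT AngII but -1.67 in KO saline and -0.35 in WT saline. Has2, a hyaluronan synthase, was the 1 of 6 hyaluronan genes that was lower (-1.32 in KO AngII, -1.34 in WT AngII), Ptgs1, cyclooxygenase-1, the 1 of 6 prostaglandin genes (-0.69, -0.84) and Tgfb3, a growth factor, the 1 of 9 TGF-beta genes (-0.75, -0.69). Ptgs1 was lower in the saline libraries too, with -1.88 in KO saline and -1.78 in WT saline. Of 10 resting fibroblast genes Hsd11b1 was higher and Cytl1 lower, and of 8 lipid handling genes Apoe was higher and Fabp4, a fatty acid carrier, lower. None passed among 10 MHC class I, 9 protease inhibitor, 15 unfolded protein response, 7 heat shock, 7 cell cycle, 8 iron and oxidative stress, 5 glucocorticoid and metallothionein, and 4 STING pathway genes.

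**Figure D4:**
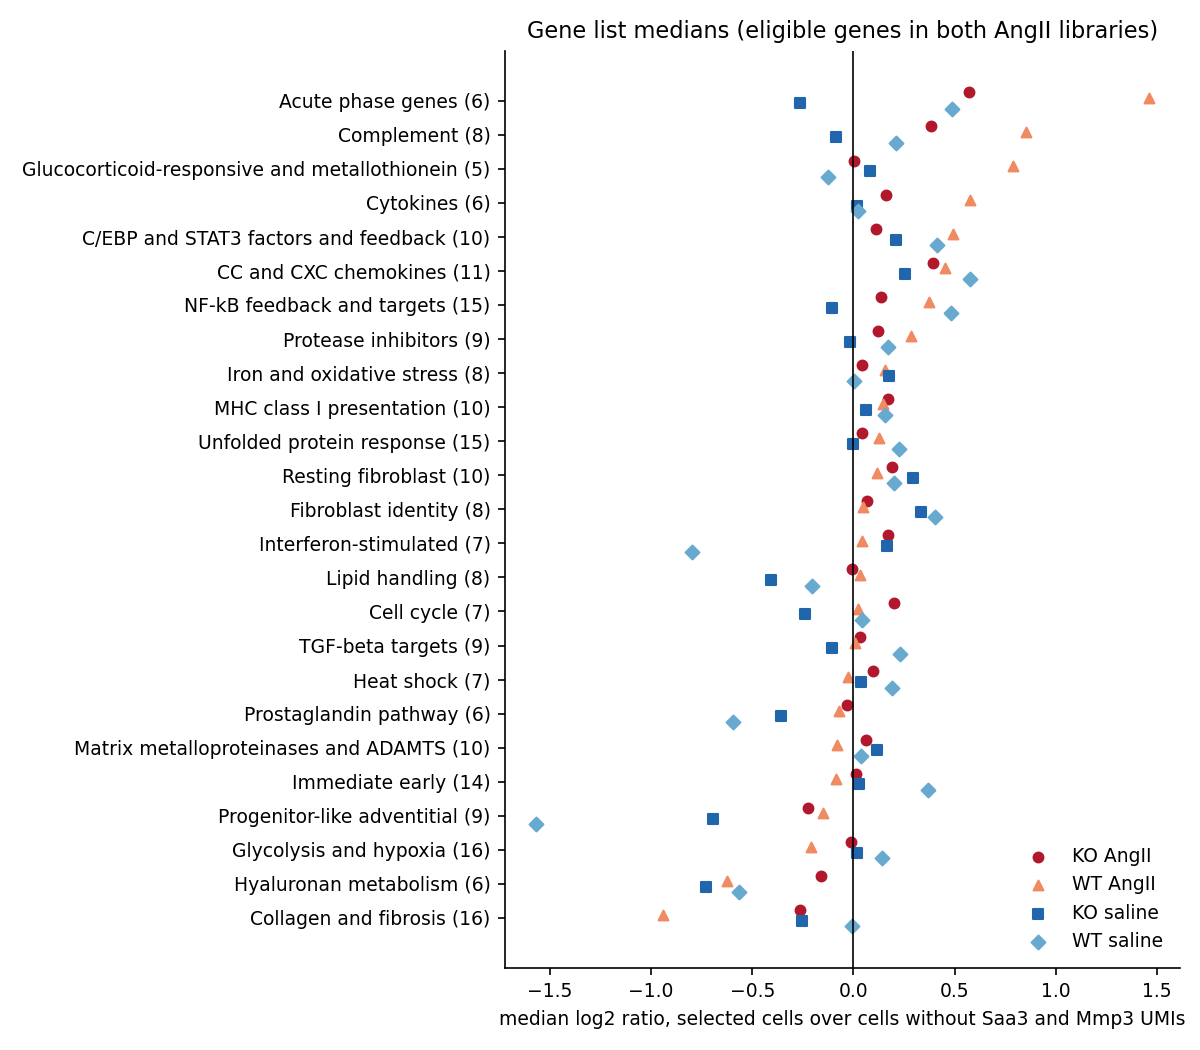
Median log2 ratio of selected over comparison cells (x axis) for each gene list (rows, with the number of eligible genes in parentheses), 1 symbol per library. Acute phase genes reach 1.46 in WT AngII and collagen and fibrosis genes -0.94, whereas NF-kB targets stay between -0.11 and 0.48.

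AngII with high fat diet was set against saline within selected cells, separately by genotype label. Fewer UMIs in the saline cells (285331 in KO saline and 483604 in WT saline, against 3013747 in KO AngII and 1876070 in WT AngII) let a gene reach the minimum of 100 UMIs more easily when it was higher with AngII, so the split of higher and lower genes leans that way. Past 2-fold in KO, 389 of 2198 genes lay higher (17.7%) and 73 lower (3.32%), and in WT 204 of 1754 were higher (11.6%) and 54 lower (3.08%). At 1.5-fold the shares were 28.8% higher and 5.1% lower in KO, and 26.6% and 7.18% in WT. Median log2 ratios of all eligible genes were 0.44 in KO and 0.27 in WT. With TMM factors the counts were 672 higher and 50 lower in KO and 309 higher and 39 lower in WT. That scaling would add 0.28 in KO and 0.20 in WT to every log2 ratio, and this changes no direction named below. Of 1247 genes eligible in both genotypes, 95 were higher and 22 lower in both, and 1 went opposite ways.

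Cthrc1 was among the genes farthest apart between treatments. In selected cells it was at 730.3 CPM in KO AngII against 7.01 CPM (2 UMIs) in KO saline, and at 771 CPM in WT AngII against 10.3 CPM (5 UMIs) in WT saline, which gave log2 ratios of 6.70 (4.85 to 9.75) and 6.22 (4.99 to 7.85). Comparison cells gave 6.51 and 5.69. Of the collagen and fibrosis list, 15 of 16 genes passed 1.5-fold upward in KO (median 2.46) and 12 of 13 in WT (median 1.56). Comparison cells had medians of 2.74 and 2.36, each over 16 eligible genes, so the WT medians do not cover the same genes.

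Chemokines for neutrophils and monocytes were among the highest ratios. Cxcl2 was at 387 CPM in KO AngII against 0 UMIs in KO saline, at least 36.8-fold higher against a floor of 3 UMIs per library, and at 177 CPM in WT AngII against 4.14 CPM in WT saline. Ccl2 was at 1291 CPM in KO AngII against 38.6 CPM in KO saline (log2 5.07, interval 4.22 to 6.07), and at 540.5 CPM in WT AngII against 51.7 CPM in WT saline, where 24 of its 25 UMIs lay in 1 cell and 2.10 CPM were left without it. The chemokine list had 7 higher and 1 lower of 9 in KO (median 2.47) and 8 of 8 higher in WT (median 2.63). In comparison cells the medians were 0.96 over 13 eligible genes and 2.70 over 12, so they are not medians of the same genes. In KO, Thbs1 (thrombospondin-1) was at 847 against 31.5 CPM, Timp1 at 2914 against 210.3 CPM, and Esm1, a secreted proteoglycan, at 169 CPM against 0, at least 16.1-fold higher. In WT, Nov, a matricellular protein, was at 582 against 49.6 CPM and the chaperone Sdf2l1 at 139 against 6.20 CPM (3 UMIs). Ptx3, an acute phase pentraxin, was at 141 against 2.07 CPM (1 UMI, log2 6.09, interval 3.60 to 11.40), with 45.3% of its WT AngII UMIs in 1 cell. The chemokine Ccl9 was at 81.0 CPM against 0, at least 13.1-fold higher, but 105 of its 152 UMIs lay in 1 cell.

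Most genes of resting fibroblasts were lower with AngII, in selected and in comparison cells. The list had 5 of 6 lower in KO (median -1.44) and 6 of 9 in WT (median -1.19). Comparison cells had medians of -2.38 and -1.32, each over 11 eligible genes, so the medians do not cover the same genes. In WT the secreted protein Angptl7 was at 43.2 CPM in AngII against 1247 in saline, the methyltransferase Inmt at 34.1 against 484, the glucocorticoid-induced factor Tsc22d3 at 72.5 against 862, glutamine synthetase Glul at 97.0 against 935 and the glycosyltransferase Galnt15 at 24 against 254 CPM. In KO, Clec3b (tetranectin) was at 128 against 1269 CPM, Gstm1 (a glutathione transferase) at 79.6 against 761, G0s2 (a lipase inhibitor) at 35.5 against 368 (222 without the 1 cell that held 43 of its 105 UMIs), Apoe at 411 against 3389 and the transporter Abca8a at 55.1 against 508 CPM. Cytl1, a cytokine-like secreted protein, had ratios of -6.07 in KO and -4.39 in WT, and 1 cell held 70.4% of its UMIs in KO saline, where the level without that cell was 541 CPM. In the AngII libraries its 25.9 CPM in KO and 18.1 CPM in WT became 16.0 and 10.7 CPM without the highest cell.

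Between the AngII libraries, KO was set against WT within selected cells. Selected cells held 3013747 UMIs in KO AngII and 1876070 in WT AngII. A gene therefore reached the UMI minimum more easily when it was higher in KO AngII, and the split leans that way. Past 2-fold, 134 of 3348 genes stood higher in KO AngII (4%) and 120 lower (3.58%), and at 1.5-fold 13.3% were higher and 8.24% lower. The median log2 ratio of these genes was 0.13. In comparison cells the 2-fold split leaned the other way, with 142 of 7868 genes higher and 232 lower (median -0.004). Interferon-stimulated genes were the lowest list, with 5 of 5 lower (median -3.47) beside 22 of 22 in comparison cells (median -2.99). Only 5 of the 25 listed genes were eligible in selected cells. Irf7 (8 against 112 UMIs), Isg15 (30 against 207) and Ifit1 (15 against 114) reached the minimum only in WT AngII. Their direction therefore follows from eligibility, though the size of their ratios does not. These counts are a description, with no 1.5-fold share over all genes of the comparison cells beside them. Irf7, the factor that amplifies interferon transcription, was at 2.65 CPM in KO AngII against 59.7 in WT AngII, Isg15, a ubiquitin-like protein, at 9.95 against 110.3, Ifit1, which binds viral RNA, at 4.98 (12 of 15 UMIs in 1 cell) against 60.8, Ifi27l2a at 88.9 against 614, and Bst2 (tetherin) at 70.7 against 424 CPM. Tmem173 was at 8.96 CPM (27 UMIs) in selected cells of the library labelled KO AngII against 14.4 CPM (27 UMIs) in WT AngII, and other differences between the 2 pools of mice cannot be told apart from genotype.

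Antigen presentation, complement and lipid genes were also lower in KO AngII than in WT AngII. MHC class I presentation had 6 of 7 lower (median -1.57, comparison cells -1.34), with B2m, the light chain, at 809 against 2401 CPM. Complement had 6 of 6 lower (median -1.35, comparison cells -0.86). Lipid handling had 4 of 4 lower (median -1.57, comparison cells -0.84), Apoe among them at 411 against 1134 CPM. Acute phase genes had 5 lower and 1 higher of 6 (median -0.89, comparison cells -0.23), and C3 was at 124 against 306 CPM. The comparison-cell medians are over the genes eligible there, 10 for MHC class I, 8 for complement, 8 for lipid handling and 6 for acute phase. Of the 8 lipid handling genes there, 4 were lower and 1 higher. The paired medians therefore need not cover the same genes. Whether the selected cells differed from the comparison cells in these respects was not tested.

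Among the genes higher in KO AngII were Thbs1, H19 and Tnc. Thbs1 was at 847 CPM in KO AngII against 69.3 CPM in WT AngII (log2 3.61, interval 3.36 to 3.88), whereas comparison cells were at 996 against 492 CPM (log2 1.02). The imprinted RNA H19 was at 83.3 against 7.46 CPM (14 UMIs, 5 of them in 1 cell) in selected cells and 178 against 139 CPM in comparison cells. Tnc, the matrix protein tenascin-C, was at 169 against 21.9 CPM, Esm1 at 169 against 24.5 CPM and the chemokine Cxcl14 at 54.4 against 6.40 CPM, with 62 of its 164 UMIs in KO AngII in 1 cell and 34.1 CPM left without it. Spp1, osteopontin, was at 133 against 21.9 CPM in selected cells but at 154 against 350.4 CPM in comparison cells, and 1 cell held 43.0% of its KO AngII UMIs, with 76.1 CPM left without it. The difference between the cell sets was not tested for any of these genes. The chemokine list was mixed, with 6 higher and 2 lower of 10 (median 1.03). In comparison cells 6 were higher and 2 lower of 14 (median -0.04), so the medians do not cover the same genes. Ccl7, a monocyte chemokine, was at 1760.3 against 532 CPM, while Cxcl12 was at 319 against 917 CPM and Ccl19, a lymphocyte chemokine, at 204 against 453 CPM. Tnnt2, cardiac troponin T, was at 9.29 against 61.3 CPM, but 112 of its 115 UMIs in WT AngII lay in 1 cell and the level without that cell was 1.61 CPM.

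**Figure D5:**
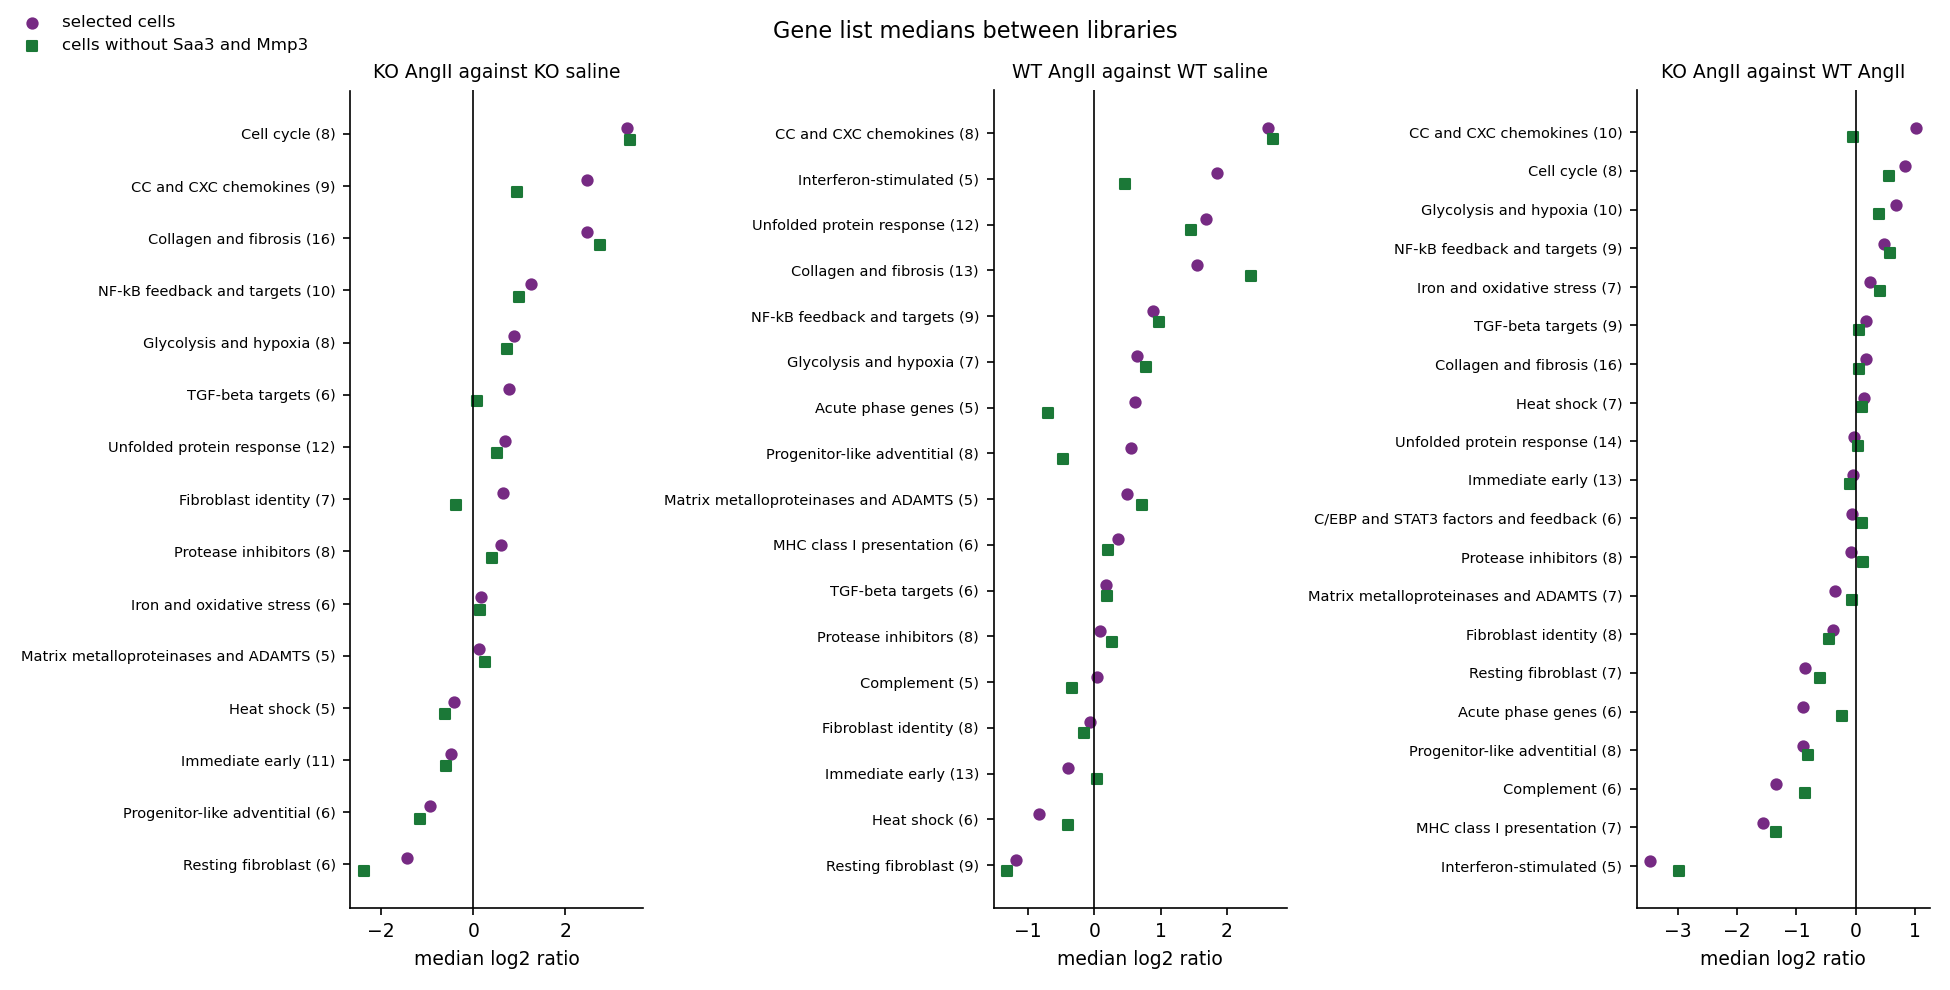
Median log2 ratio between libraries (x axis) of gene lists (rows, with the number of genes eligible in selected cells in parentheses) for KO AngII against KO saline, WT AngII against WT saline, and KO AngII against WT AngII, with circles for selected and squares for comparison cells. Comparison-cell medians are over the genes eligible in those cells, so the symbols of a row can cover different genes. Interferon-stimulated genes lie at -3.47 and -2.99 in the third panel, and collagen and fibrosis genes lie right of 0 in the first and second panels for both cell sets.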

How the data were processed

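Thoracic aorta cells were profiled with a 10x Genomics 3′ v3 kit, 1 library of 3 pooled mice per group, per the labels' protocols. Values deposited by the authors are raw UMI counts, whole numbers for each gene in each cell. The submitters' processing notes name Cell Ranger and mm10. No version, annotation or cell filter is given in the sources used here, although no deposited cell had more than 4998 detected genes. All 4 files listed the same 17524 gene symbols, and 0 columns were left unmapped.

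Cells were selected on raw UMIs, with no other cell filter and no removal of doublets. Counts were summed per library and cell set and divided by the total to give CPM. Log2 ratios carry exact conditional 95% intervals, cell shares Clopper-Pearson intervals and CPM values Poisson intervals. Barcodes are not replicates, so no test was made. Between libraries a gene was eligible with 100 UMIs on the side of higher CPM. A gene at 0 was set to a floor of 3 UMIs per library. The members and the 34 gene lists were chosen with earlier results of these data known.

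Genes were named by rank of the interval bound nearest 0: 12 per direction between cell sets and 6 per direction between libraries, leaving out mitochondrial, ribosomal, haemoglobin, sex-linked marker, unnamed and selection genes, and beside them genes of the lists. Scaling alternatives used edgeR 4.0.16 (TMM) and DESeq2 1.42.0 (median of ratios) in R 4.3.3, and the rest numpy 2.4.6, scipy 1.17.1 and pandas 2.3.3 in Python 3.11.15. The ratio and its interval were tested on simulated counts. Selection alternatives, minimum counts, depth matching and equal weighting of cells were also tried.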

Additional observations from a re-analysis of the deposited data

Results flagged for a closer look

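Ly6c1, a surface protein of adventitial progenitor-like fibroblasts and endothelial cells, went opposite ways with AngII in the selected cells of the 2 genotype labels. Its log2 ratio of AngII over saline was -1.05 in KO (200.4 CPM in KO AngII against 414 in KO saline) and 1.73 in WT (735 CPM in WT AngII against 221 in WT saline). In comparison cells the ratio was -1.51 in KO and -0.50 in WT. Summed endothelial markers in selected cells were 7.63 CPM in KO AngII against 42.1 CPM in KO saline, and 22.4 CPM in WT AngII against 103 CPM in WT saline, and their part in the result was not tested. It was the 1 gene of 1247 eligible in both genotypes that was at least 2-fold apart on opposite sides. Scaling by TMM factors would add 0.28 to the KO ratio, which keeps its direction but is then within 2-fold. The difference was not tested.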

How the results depend on the processing

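No paired analysis was possible because each group was 1 library and the labels give no replicate numbers; for the same reason no library could be left out. Each value below replaces 1 choice. Between selected and comparison cells (17 higher, 36 lower), the higher genes numbered 30 without a minimum, 6 with a minimum of 300 UMIs, 11 against all fibroblasts under 3 UMIs and 27 with no Prg4 and Crabp2 limit on the comparison cells (chosen after seeing the data); the lower genes numbered 71 and 14 for the first pair. With only the 18 and 9 cells of at least 3 Saa3 UMIs as the selected set, 45 genes were higher, of which 3 were among the 17, and the ratios turned to -0.84 for Fbln7 in WT AngII, -1.20 for Apoe and -0.31 for Hsd11b1 in KO AngII, and -0.93 (KO) and -1.58 (WT) for Figf; the cause was not tested. With Mmp3-selected cells that lacked Saa3, all 17 higher genes remained and 34 of the 36 lower. The counts kept within 1.5 times of these under TMM, median-of-ratios, at least 5 UMIs, the stricter gate, equal cell weights, depth matching and removal of cells above 2 times the median UMIs.

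In KO AngII against KO saline the 389 higher genes became 672 (TMM), 666 (median of ratios) and 181 (minimum of 300 UMIs), and the 73 lower became 1085 (no minimum) and 26 (300 UMIs). In WT the 204 higher became 309, 308, 429 (no minimum) and 87 (300 UMIs), and the 54 lower 807 and 20. In KO AngII against WT AngII the 134 higher became 426 and 54 and the 120 lower 749 and 51 for the same minimums. Without a minimum, genes with few UMIs enter the counts.

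Shares of selected cells are of all fibroblasts, in the order KO AngII, WT AngII, KO saline and WT saline. They were 17.4%, 15.5%, 15.6% and 15% at 2 UMIs, 8.91%, 8.43%, 7.92% and 8.89% at 5 UMIs, and 0.972%, 0.538%, 0% and 0% for Saa3 alone. Thinned to 2000 UMIs (chosen after seeing the data) they were 6.51%, 6.64%, 6.68% and 9.48%, and thinned to 5000 UMIs 9.36% and 9.99% in the AngII libraries. The other settings left the shares within their intervals. For the 24 named genes, 584 of the recomputed ratios kept direction and size, 72 moved and the 5 above reversed. Depth limits genes in KO saline most, where 57 selected cells held 285331 UMIs.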

Other observations

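The metallothioneins Mt1 and Mt2, which bind zinc and copper, were not 1.5-fold apart in KO AngII but 2-fold apart in WT AngII. Mt1 was at 2072 CPM in selected and 1526 CPM in comparison cells of KO AngII, and at 3140.1 and 1548 CPM in WT AngII. Mt2 was at 1530.3 and 1201 CPM in KO AngII and 2006 and 917 CPM in WT AngII. In the saline libraries the log2 ratios of Mt1 were 0.36 in KO and 0.26 in WT, and those of Mt2 were -0.14 and 0.23. The protease inhibitor Serpina3n, an acute phase gene of fibroblasts, had ratios of 0.56 in KO AngII, 1.78 in WT AngII, 0.95 in KO saline and -0.03 for WT saline, so the size varied widely between libraries.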
